A study of Mus musculus with 4 samples.

Results

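The genes described here are 33 enzymes and regulators of cholesterol and fatty acid synthesis, followed across 4 mouse oral cancer lines by their rows in an expression table of 34721 entries. They were listed by function and matched to Ensembl identifiers through the GENCODE M21 annotation. For 32 of the 33 genes the table held an entry. Mvd, the mevalonate diphosphate decarboxylase, was not analysed here. All 32 reached 1 FPKM in at least 1 line, as did 14165 entries in all, which form the background for every share given in this section. FPKM gives the fragments of a gene relative to the length of its transcript and the size of the library.

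Cells build cholesterol from acetyl-CoA through mevalonate, the isoprenoid diphosphates, squalene and a series of sterol intermediates, and they build fatty acids from the same precursor through malonyl-CoA. Both routes are switched on by the SREBP transcription factors, which are held in the endoplasmic reticulum by SCAP and the INSIG proteins while sterols are plentiful and are cut free and sent to the nucleus when sterols run low. Growing tumor cells need both products for new membranes, and cells in culture also take lipids from the serum in their medium.

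The lines came from C57BL/6 mice whose buccal mucosa was painted with the carcinogen DMBA on a cotton swab until overt oral tumors formed, over a longer period for the mouse of the AOC11 lines than for the mouse of the AOC3 lines. AOC3 and AOC11 were raised from the primary oral tumors and AOC3-LN and AOC11-LN from metastatic lymph nodes of these animals, and no engineered allele or treatment is named for any of them. Each line was grown out from a tumor cell suspension and passed through a flank tumor in another mouse. Fibroblasts were then separated off with an isolation kit, and the lines were cultured in medium with serum. Each line is represented by 1 library. Every group below is therefore 1 mouse or 1 line, and any p-value measures only the spread among these 4 lines. Because the RNA came from bulk cultures, fewer cells that express a gene and less RNA per cell cannot be told apart.

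The spacing of low FPKM values gave estimated depths between 28300000 and 33700000 fragments per library. Fragments behind a gene's value were estimated from its FPKM, that depth and the median length of its annotated coding transcripts, less a fitted offset. That length was 557 bases for Insig2 and 753 for Tm7sf2, and another length would change the estimate. The estimates ranged from 17.9 for Tm7sf2 in AOC11 to 70340 for Scd2 in AOC11-LN. The 95% intervals of a lymph node to primary log2 ratio that follow from these numbers reached 0.0192 to 0.316 to either side of the ratio in the AOC3 pair and 0.0199 to 0.745 in the AOC11 pair, and they cover counting error only. All 6 epithelial markers, among them Epcam, Cdh1, Krt8 and Krt18, were present in each line, with summed levels of 2736 to 3492 FPKM, although Krt5 was at 499 and 275 FPKM in AOC3 and AOC3-LN against 4.99 and 17.0 in AOC11 and AOC11-LN. The summed levels of 8 fibroblast markers were 0.246 to 1.17 FPKM, those of 5 adipocyte markers at most 0.111, those of 3 endothelial markers at most 0.384 and those of 5 sebocyte markers 1.25 to 1.95, and 3 T cell markers were listed at 0. The summed levels of 5 macrophage markers, made up almost wholly of Cd68 and Csf1r, were 14.0 FPKM in AOC3 and 9.29 in AOC3-LN, against 27.0 in AOC11 and 10.5 in AOC11-LN, while Ptprc, Adgre1 and Lyz2 were at or near 0 in each line. Csf1r stood at 20.8 FPKM in AOC11, the line in which most of the lipid synthesis genes were lowest, and at 6.01 in AOC11-LN, and its part in the differences below was not tested.

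The lipid synthesis genes were among the more abundant transcripts of these lines. Their median level was 48.7 FPKM in AOC3 and 46.4 in AOC3-LN, against 38.0 in AOC11 and 73.9 in AOC11-LN, against medians of 9.91 to 10.9 over all entries. Summed over the 32 genes, the level was 2461 FPKM in AOC3 and 2188 in AOC3-LN, against 1781 in AOC11 and 3070 in AOC11-LN. AOC11 and its lymph node line thus stood at the bottom and the top of this order, with the AOC3 lines between them. The sum in AOC11-LN was 1.72 times that in AOC11, whereas the sum in AOC3-LN was 0.889 times that in AOC3. AOC11 held the lowest normalized level of 20 of the 32 genes, against 26.5% of all entries, and AOC11-LN held the highest level of 16, against 26.9%. For 7 genes, Acat2, Lss, Msmo1, Scd1, Scd2, Fads1 and Fads2, both held, against 7.52% of all entries.

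**Figure D1:**
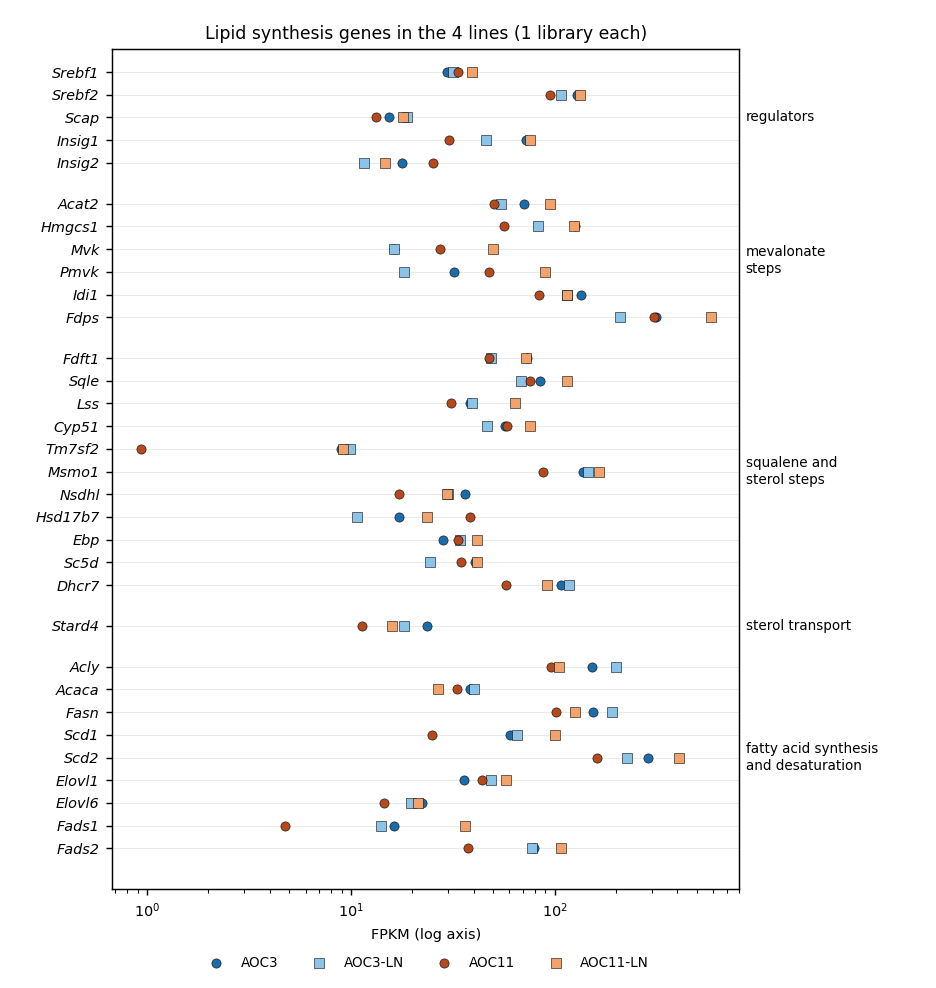
FPKM of the 32 lipid synthesis genes on a log axis, 1 point per line and gene, grouped by step of the pathway, with circles for primary and squares for lymph node lines. The dark orange circles of AOC11 are the lowest point for 20 genes, and Tm7sf2 in AOC11, at 0.933 FPKM, lies far to the left of every other point.

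**Figure D2:**
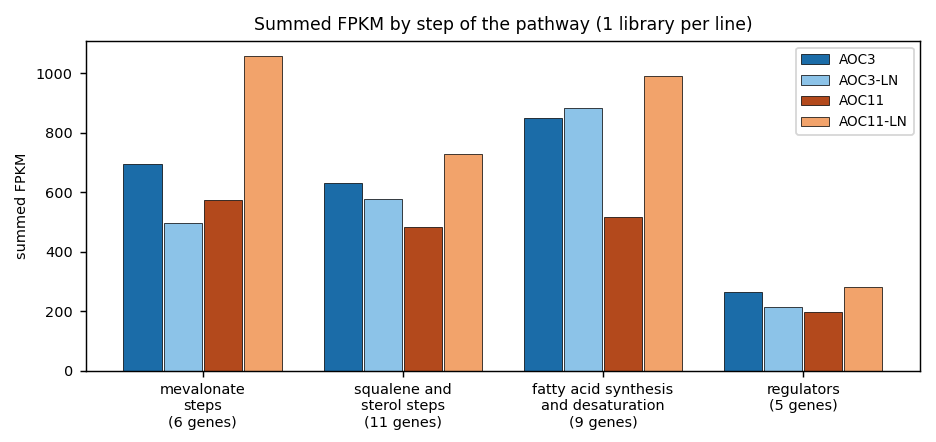
Summed FPKM of the genes of each step in the 4 lines, with 1 library per line and therefore no error bars, on an axis that starts at 0. In each of the 4 groups the bar of AOC11-LN is the highest, and it stands between 1.43 times (regulators) and 1.91 times (fatty acid genes) the bar of AOC11.

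To show the control regions of genes that the comparisons below turn on, the bases before the RefSeq transcription starts in GRCm38.p6, the assembly also named mm10, were read for 25 of the 32 genes. Fdps, Fdft1, Sqle, Stard4, Scd1, Scd2 and Fads1 were not read. Short sets of letters were searched on both strands of the 250 bases before each start, and a gene with several starts counted once if any of its windows held them. These were TCACNCCAC, a sterol regulatory element of the kind bound by SREBP, CCAAT, the box bound by NF-Y, and GGGCGG, the box bound by Sp1, and NF-Y and Sp1 are known to act beside SREBP. TCACNCCAC occurred before 1 of the 25 genes, Hmgcs1, and before 1.19% of 9353 genes with a window that passed the expression filter. CCAAT occurred before 19 of the 25, against 41.2% of those genes, and GGGCGG before 21, against 65.4%. Within a window, matches of different letter sets overlapped only before Elovl1, where CCGCCC, the GGGCGG box on the other strand, began at -39 and CCAAT at -35. A match of letters is a description and does not show that a factor binds there. Other forms of the sterol regulatory element were not searched, so a missing match does not show that a gene lacks one. For 30 of the 34 windows, bases 16 to 45 after the start lay in a transcript of the gene. The window of Acaca (chr11:84195188-84195437) lies inside the gene, whose annotated start is at 84129672.

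The stretches of 5 of these windows that lie outside annotated exons follow, read 5′ to 3′ on the strand of the gene, with the matches on either strand in capitals. Hmgcs1 (chr13:119690101-119690350, plus strand), Insig1 (chr5:28071162-28071362, plus strand) and Lss (chr10:76531355-76531587, plus strand) are shown because they were past the threshold in AOC11-LN. Mvk (chr5:114444061-114444268, plus strand) is shown because it separated the mice, and Hsd17b7 (chr1:169969242-169969408, minus strand) because it was lower in both lymph node lines.
Hmgcs1: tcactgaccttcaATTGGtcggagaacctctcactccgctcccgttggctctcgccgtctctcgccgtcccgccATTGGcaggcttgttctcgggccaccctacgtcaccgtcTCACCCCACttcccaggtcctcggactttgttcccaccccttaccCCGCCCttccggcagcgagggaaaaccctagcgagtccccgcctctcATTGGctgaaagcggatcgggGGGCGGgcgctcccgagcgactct
Insig1: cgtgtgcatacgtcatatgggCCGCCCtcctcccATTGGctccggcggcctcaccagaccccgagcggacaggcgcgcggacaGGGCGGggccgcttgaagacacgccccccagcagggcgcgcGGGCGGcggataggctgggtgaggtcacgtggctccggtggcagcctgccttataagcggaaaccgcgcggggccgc
Lss: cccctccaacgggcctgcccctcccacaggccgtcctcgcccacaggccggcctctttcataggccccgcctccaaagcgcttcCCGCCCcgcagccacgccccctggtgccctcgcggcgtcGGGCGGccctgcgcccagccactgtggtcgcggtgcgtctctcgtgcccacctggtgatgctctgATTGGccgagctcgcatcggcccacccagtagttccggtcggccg
Mvk: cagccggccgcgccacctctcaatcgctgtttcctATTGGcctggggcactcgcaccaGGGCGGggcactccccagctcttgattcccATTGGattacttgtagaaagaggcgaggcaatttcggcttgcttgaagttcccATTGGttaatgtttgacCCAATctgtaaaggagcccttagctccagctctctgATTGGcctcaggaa
Hsd17b7: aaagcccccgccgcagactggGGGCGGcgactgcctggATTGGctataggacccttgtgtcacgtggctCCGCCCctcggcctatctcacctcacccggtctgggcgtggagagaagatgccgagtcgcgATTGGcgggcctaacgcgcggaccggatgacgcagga
In Hmgcs1 the sterol regulatory element begins at position -137, counted back from the start, between CCAAT boxes on the other strand that begin at -176 and -45. Insig1 holds 1 CCAAT box and 3 GGGCGG boxes, and Lss 1 and 2. Mvk holds 5 CCAAT boxes in its whole window. Hsd17b7 holds 3 CCAAT and 3 GGGCGG boxes in its whole window.

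The comparison of each lymph node line with the primary line of its mouse asks how the genes differ between the sites of a tumor. Levels were compared as normalized log2(FPKM + 1), on which a difference of 1 is close to a doubling for all but the lowest genes, and a difference above 1 or below -1 counted as past the threshold. In AOC11-LN against AOC11, 8 of the 32 genes were past the threshold upward, against 4.97% of all entries, and 0 were past it downward, against 3.14%. The 8 were Insig1, Hmgcs1, Lss, Tm7sf2, Scd1, Scd2, Fads1 and Fads2. A difference above 0 was found for 29 genes, against 47.7% of all entries, and the exceptions were Insig2, Hsd17b7 and Acaca. The median difference was 0.58 over the 32 genes and -0.02 over all entries. In AOC3-LN against AOC3, by contrast, 0 genes were past the threshold in either direction, against 2.11% of all entries upward and 3.42% downward. There, 19 genes had a difference below 0, against 46.1% of all entries, and the median was -0.19, against 0.02 over all entries. These differences are between single libraries and have no replicate check.

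**Figure D3:**
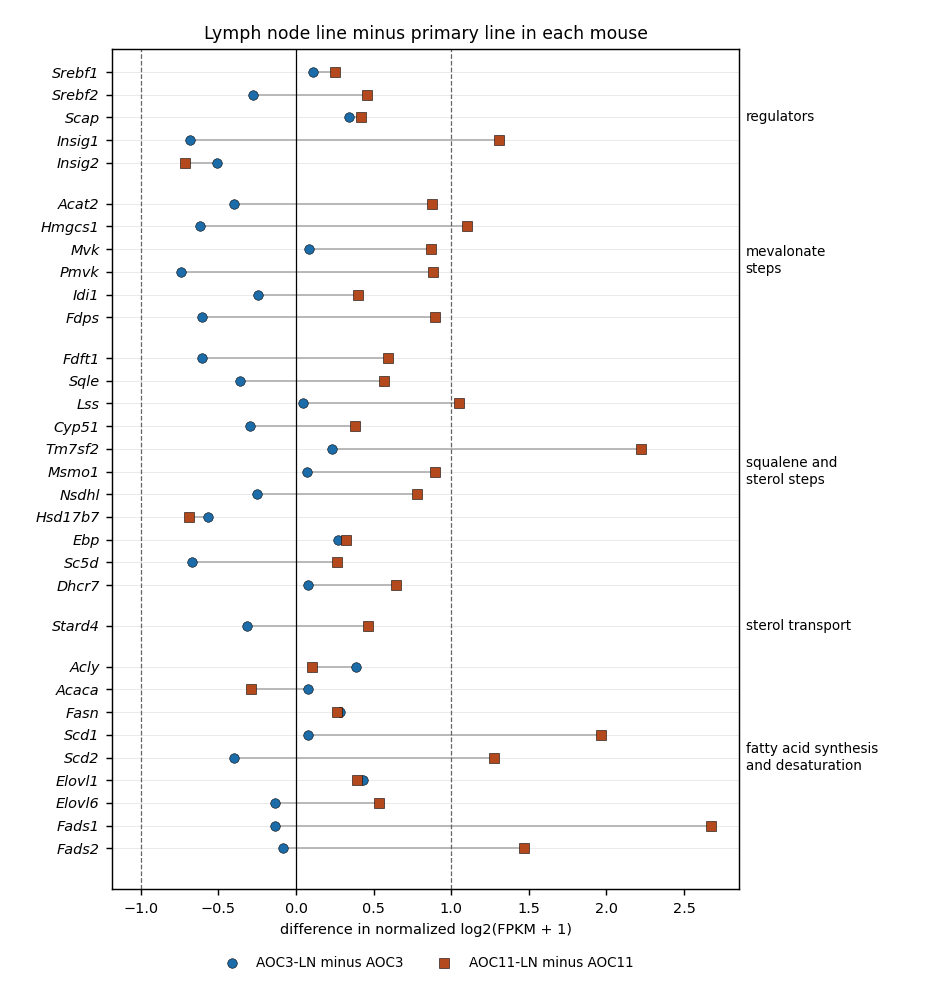
Difference in normalized log2(FPKM + 1) between the lymph node and the primary line for each of the 32 genes, with blue circles for AOC3-LN minus AOC3 and orange squares for AOC11-LN minus AOC11, joined by a line, and dashed lines at -1 and 1. The squares lie right of 0 for 29 genes and beyond 1 for 8, whereas the circles lie between -0.74 and 0.43.

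**Figure D4:**
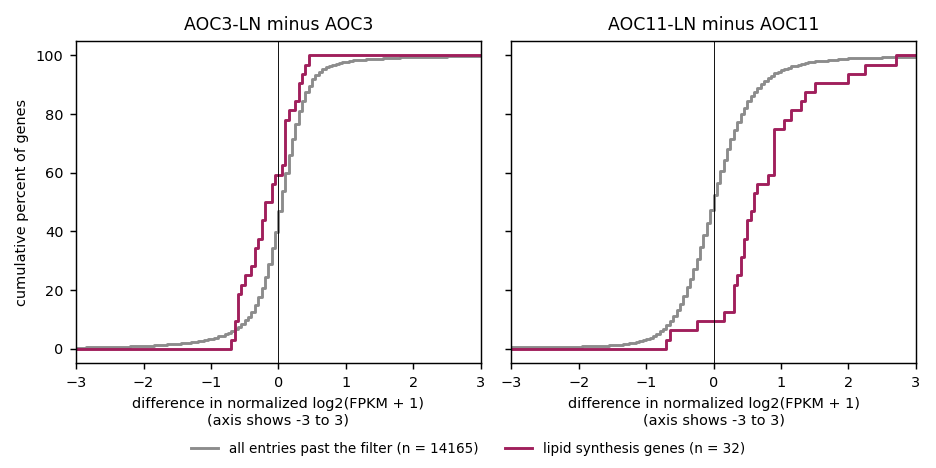
Cumulative percent of genes against the difference in normalized log2(FPKM + 1) between the lymph node and primary line, for the 32 lipid synthesis genes and for the 14165 entries past the filter, 1 panel per mouse. In the AOC11 panel the curve of the lipid synthesis genes runs to the right of the grey curve, with medians of 0.58 and -0.02, and in the AOC3 panel it runs to the left over its middle part, with medians of -0.19 and 0.02.

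Among the regulators, Srebf2, whose product mainly drives the cholesterol genes, stood at 128 FPKM in AOC3 and 107 in AOC3-LN, against 94.4 in AOC11 and 132 in AOC11-LN. Srebf1, whose products mainly drive the fatty acid genes, had 29.6, 31.9, 33.4 and 39.5 FPKM in the same order of lines. Srebf2 was thus the more abundant of the pair in each line, by 2.82 times in AOC11 to 4.32 times in AOC3, and neither gene was past the threshold in any comparison of the lines. Scap, the escort of the SREBP precursors, had 15.4, 18.9, 13.3 and 18 FPKM and was higher in both lymph node lines, by 0.34 in the AOC3 pair and 0.42 in the AOC11 pair on the log2 scale.

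Insig1, a retention factor that is itself an SREBP target (ENSMUSG00000045294.11, chr5:28071363-28078662), stood at 72.6 FPKM in AOC3 and 46.0 in AOC3-LN, against 30.4 in AOC11 and 75.7 in AOC11-LN. AOC3 and AOC11-LN were therefore high and AOC11 low, and the lymph node line was lower in one mouse and higher in the other. The log2 differences were -0.68 in the AOC3 pair and 1.31 in the AOC11 pair. Insig2, its paralogue with the same role, stood at 17.9 FPKM in AOC3 and 11.6 in AOC3-LN, against 25.2 in AOC11 and 14.8 in AOC11-LN. Here both primary lines stood above both lymph node lines, with differences of -0.51 and -0.71. The ratio of Insig1 to Insig2 FPKM was 4.06 in AOC3 and 3.97 in AOC3-LN, against 1.21 in AOC11 and 5.13 in AOC11-LN, so AOC11 was the line in which the 2 retention factors were closest to equal.

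The enzymes of the mevalonate steps were higher in AOC11-LN than in AOC11 for 6 of 6 genes, against 47.7% of all entries, with a median difference of 0.88, and lower in AOC3-LN than in AOC3 for 5 of 6, against 46.1%, with a median of -0.51. Their summed level was 695 FPKM in AOC3 and 496 in AOC3-LN, against 573 in AOC11 and 1056 in AOC11-LN. Hmgcs1, the cytosolic HMG-CoA synthase (ENSMUSG00000093930.2, chr13:119690379-119708260), stood at 126 FPKM in AOC3 and 82.7 in AOC3-LN, against 56.4 in AOC11 and 124 in AOC11-LN. The pattern of high values in AOC3 and AOC11-LN was the one seen for Insig1, and the differences were -0.62 and 1.10. Its exons share 557 bases with the antisense gene Gm48342, which had 21.2, 14.4, 9.73 and 17.9 FPKM, and since the study names default parameters for TopHat2 and Cufflinks, which do not use strand, reads of the shared bases cannot be told apart.

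Acat2, the cytosolic thiolase that joins acetyl-CoA units, had 70.7, 54.7, 50.5 and 94.5 FPKM in AOC3, AOC3-LN, AOC11 and AOC11-LN. Fdps, which makes farnesyl diphosphate, was the most abundant of the sterol pathway genes in each line, with 314, 209, 307 and 584 FPKM. For both, the lymph node line was above the primary line in the mouse of the AOC11 lines and below it in the other, with differences of 0.88 for Acat2 and 0.89 for Fdps against -0.40 and -0.61 in the AOC3 pair. Exons of Fdps share 1124 bases with Gm43738, which was at most 0.867 FPKM. Idi1, the isopentenyl diphosphate isomerase, had 135, 115, 84.2 and 115 FPKM and differences of -0.24 and 0.40.

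The kinases of the pathway had another order of lines. Mevalonate kinase, Mvk (ENSMUSG00000041939.14, chr5:114444269-114460591), stood at 16.2 FPKM in AOC3 and 16.3 in AOC3-LN, against 27.4 in AOC11 and 49.8 in AOC11-LN. Phosphomevalonate kinase, Pmvk (ENSMUSG00000027952.16, chr3:89454541-89469013), had 32.2, 18.3, 47.6 and 89.2 FPKM. For both, the 2 AOC3 lines lay below the 2 AOC11 lines with no overlap, as they did for 26.7% of all entries. AOC11-LN was the highest line for both genes. The difference between the lymph node and primary line was 0.08 in the AOC3 pair and 0.87 in the AOC11 pair for Mvk, and -0.74 and 0.88 for Pmvk.

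Among the enzymes that turn farnesyl diphosphate into cholesterol, 10 of 11 were higher in AOC11-LN than in AOC11, against 47.7% of all entries, with a median difference of 0.59. In AOC3-LN, 6 of 11 were lower than in AOC3, a share near the 46.1% of all entries, with a median of -0.25. Lss, the lanosterol synthase that closes the sterol rings (ENSMUSG00000033105.12, chr10:76531588-76557138), stood at 38.4 FPKM in AOC3 and 39.2 in AOC3-LN, against 30.9 in AOC11 and 63.9 in AOC11-LN. AOC11-LN stood above the other lines, and the differences were 0.05 in the AOC3 pair and 1.05 in the AOC11 pair. Tm7sf2, a sterol reductase (ENSMUSG00000024799.16, chr19:6062821-6068373), had 9.0, 9.95, 0.933 and 9.15 FPKM. Here AOC11 was the line that stood apart, with AOC11-LN 9.81 times above it, and the difference was 2.22 in the AOC11 pair and 0.23 in the AOC3 pair. The AOC11 value rests on an estimated 17.9 fragments, and the 95% interval of the log2 ratio in the AOC11 pair, without a pseudocount, was 2.64 to 4.13. Tm7sf2 shares 532 exon bases with Vps51 on the same strand, which had 17.0, 17.4, 18 and 28.9 FPKM. The part of shared reads in the Tm7sf2 values was not tested.

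Fdft1, the squalene synthase, stood at 73.4 FPKM in AOC3 and 48.7 in AOC3-LN, against 47.9 in AOC11 and 72.1 in AOC11-LN, with differences of -0.61 and 0.59. It overlaps Ctsb on the other strand by 774 exon bases, and Ctsb had 126, 130, 133 and 87.8 FPKM, above Fdft1 in each line. As for Hmgcs1, reads of the shared bases cannot be told apart. Sqle, the squalene epoxidase, had 85.1, 68.4, 75.7 and 115 FPKM, and Cyp51, the lanosterol demethylase, 56.9, 46.7, 58.4 and 75.9. For these genes AOC3-LN was low and AOC11-LN high, with differences of -0.36 and 0.57 for Sqle and -0.29 and 0.38 for Cyp51. Msmo1, the methylsterol oxidase, had 138, 146, 87.4 and 164 FPKM, and Nsdhl, which acts after it, had 36.3, 30.0, 17.2 and 29.6. Both were lowest in AOC11, with differences in the AOC11 pair of 0.90 and 0.78.

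Among the last steps of the pathway, AOC11-LN was the highest line for Ebp and Sc5d and AOC3-LN for Dhcr7. Ebp, the sterol isomerase, had 28.2, 34.3, 33.5 and 41.6 FPKM and was higher in both lymph node lines, by 0.27 and 0.32. Sc5d, the sterol desaturase, had 40.5, 24.4, 34.9 and 41.8 FPKM, and AOC3-LN was the low line. Dhcr7, the terminal reductase, had 108, 117, 57.7 and 92.0 FPKM, and both AOC3 lines lay above both AOC11 lines. Stard4, a carrier that moves cholesterol between membranes, had 23.7, 18.3, 11.3 and 16 FPKM, again with both AOC3 lines above both AOC11 lines. That order was shared by 26.3% of all entries.

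Hsd17b7, the reductase of keto sterols (ENSMUSG00000026675.12, chr1:169949535-169969241), was the 1 gene of the sterol steps that was lower in AOC11-LN than in AOC11. It stood at 17.2 FPKM in AOC3 and 10.7 in AOC3-LN, against 38.4 in AOC11 and 23.5 in AOC11-LN, so that AOC11 was its highest line and AOC3-LN its lowest. The differences between the lymph node and primary line were -0.57 and -0.69. With Insig2 it was 1 of 2 genes that were lower in both lymph node lines, a pattern shared by 22.3% of all entries.

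The genes of fatty acid synthesis comprise those that make and lengthen saturated chains and those that desaturate them, and 8 of the 9 were higher in AOC11-LN than in AOC11, against 47.7% of all entries, with a median difference of 0.54. Acly, which makes cytosolic acetyl-CoA from citrate, stood at 153 FPKM in AOC3 and 200 in AOC3-LN, against 95.7 in AOC11 and 105 in AOC11-LN. Fasn, the fatty acid synthase, had 155, 191, 102 and 126 FPKM, and Acaca, the acetyl-CoA carboxylase between them, had 38.4, 40.1, 33 and 26.6. For these 3 genes both AOC3 lines lay above both AOC11 lines, as they did for 26.3% of all entries. The lymph node minus primary differences were 0.39 and 0.10 for Acly, 0.28 and 0.26 for Fasn and 0.08 and -0.29 for Acaca in the AOC3 and AOC11 pairs. Elovl1, an elongase of very long chains, had 36, 48.8, 44.2 and 57.9 FPKM and differences of 0.43 and 0.39. Elovl6, which lengthens palmitate, had 22.3, 19.7, 14.5 and 21.2 FPKM and differences of -0.13 and 0.54.

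The listed fatty acid desaturases separated AOC11 from AOC11-LN, with Scd1, Scd2, Fads1 and Fads2 past the threshold upward, as were 4.97% of all entries. Scd1, a stearoyl-CoA desaturase that makes monounsaturated chains (ENSMUSG00000037071.3, chr19:44394455-44407879), stood at 60.2 FPKM in AOC3 and 65.5 in AOC3-LN, against 24.9 in AOC11 and 99.9 in AOC11-LN. Its paralogue Scd2 (ENSMUSG00000025203.6, chr19:44293674-44306864) had 289, 226, 161 and 409 FPKM. For both, AOC11 was the lowest line and AOC11-LN the highest, with differences in the AOC11 pair of 1.97 and 1.28. Those in the AOC3 pair were 0.08 and -0.40. Scd2 was the more abundant of the 2 genes in each line, by 3.45 times in AOC3-LN to 6.44 times in AOC11.

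Fads1 (ENSMUSG00000010663.5, chr19:10182888-10196877) and Fads2 (ENSMUSG00000024665.8, chr19:10062765-10101746), desaturases of polyunsaturated fatty acids, lie next to each other on chromosome 19. Fads1 stood at 16.3 FPKM in AOC3 and 14.0 in AOC3-LN, against 4.77 in AOC11 and 36.3 in AOC11-LN. Fads2 had 79.4, 77.4, 37.6 and 107 FPKM. Again AOC11 was lowest and AOC11-LN highest, and the AOC3 lines were close to each other. On the log2(FPKM + 1) scale Fads1 had the largest difference of the 32 genes in the AOC11 pair, 2.67, and 0.642% of all entries had a larger one. As a ratio of FPKM it was 7.61, below the 9.81 of Tm7sf2, whose difference the pseudocount shrinks more. Fads2 followed the same order with 1.47, while the differences in the AOC3 pair were -0.13 and -0.08.

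Set side by side, the shifts of many of the genes differed between the mice in sign or in size. Those of others were close, as for Fasn, with 0.28 in the AOC3 pair and 0.26 in the AOC11 pair. Lower in AOC3-LN than AOC3 and higher in AOC11-LN than AOC11 were 17 of the 32 genes, against 23.3% of all entries, and 12 were higher in both lymph node lines, against 23.9%. The shift in the AOC11 pair exceeded that in the AOC3 pair by more than 1 for 13 genes, against 8.91% of all entries, and fell short of it by more than 1 for 0, against 6.70%. The median excess was 0.81, against -0.04 over all entries. With 1 pair of lines per mouse this difference between the mice could not be tested. In limma's fit of the site with mouse as a block and Benjamini-Hochberg adjustment, 0 of the 32 genes and 0.0141% of all entries had an adjusted p under 0.05, and 2 genes, Insig2 and Hsd17b7, had an unadjusted p under 0.05, against 2.86% of all entries. The site difference in that fit was -0.61 (SE 0.23) for Insig2 and -0.63 (SE 0.22) for Hsd17b7, and the adjusted p of each of the 32 genes was 0.999.

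The comparison of the mice asks which genes differ between tumors of separate origin, and the counts leaned in opposite directions at the primary and the lymph node site. AOC3 was above AOC11 for 25 of the 32 genes, against 47.8% of all entries. Past the threshold upward were 8 genes, Insig1, Hmgcs1, Tm7sf2, Nsdhl, Stard4, Scd1, Fads1 and Fads2, against 6.25%, and 1 was past it downward, Hsd17b7, against 5.69%. The median difference was 0.58, against -0.02 over all entries. AOC3-LN was below AOC11-LN for 23 genes, against 47.7% of all entries. Past the threshold downward were 4 genes, Mvk, Pmvk, Fdps and Fads1, against 8.69%, and 0 were past it upward, against 7.58%, with a median of -0.33 against 0.03. For 16 of the 32 genes, and for 15.3% of all entries, AOC3 was above AOC11 and AOC3-LN below AOC11-LN. AOC11 enters both the primary comparison and the shift in its own mouse, so the low values of that library bear on both.

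**Figure D5:**
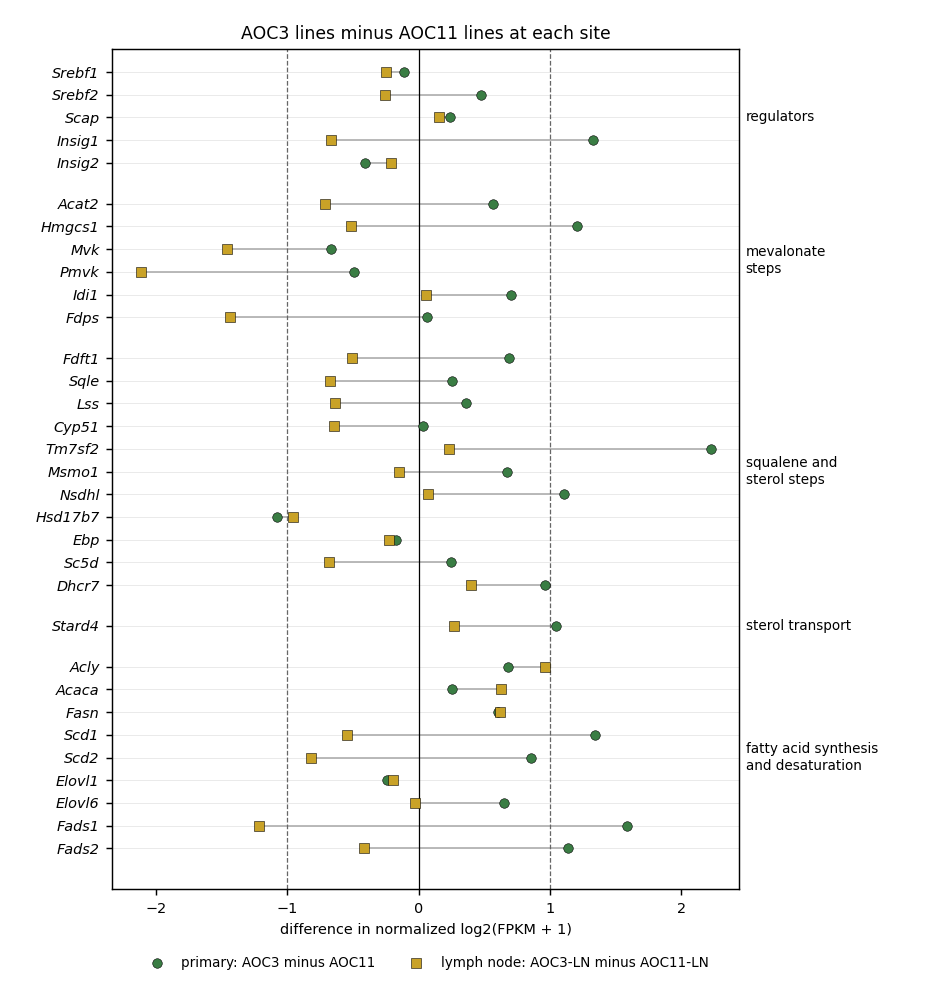
Difference in normalized log2(FPKM + 1) between the AOC3 and the AOC11 line of the same site for each of the 32 genes, with green circles for the primary lines and yellow squares for the lymph node lines, and dashed lines at -1 and 1. The circles lie right of 0 for 25 genes and the squares left of 0 for 23, and Pmvk reaches -2.12 in the lymph node lines.

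Fads1 was past the threshold in opposite directions, at 1.59 between the primary lines and -1.22 between the lymph node lines. Fdps was level between the primary lines, at 0.06, and lower in AOC3-LN than in AOC11-LN, at -1.44. Tm7sf2 was higher in AOC3 than in AOC11 by 2.23 and differed by 0.23 between the lymph node lines. Acly, Fasn and Acaca were higher in the AOC3 line at both sites, with 0.68 and 0.97 for Acly, 0.60 and 0.62 for Fasn and 0.26 and 0.62 for Acaca at the primary and lymph node site.

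Averaged over both sites, 4 of the 32 genes were past the threshold between the AOC3 and AOC11 lines, against 11.1% of all entries. Tm7sf2 had the higher mean in the AOC3 lines, by 1.23, and Mvk, Pmvk and Hsd17b7 were higher in the AOC11 lines, with -1.07, -1.30 and -1.02. The median was 0.15, against 0.01 over all entries, and it changed sign with the line left out, at -0.01 without AOC3 and -0.31 without AOC11. Both AOC3 lines lay above both AOC11 lines for 8 genes, Idi1, Tm7sf2, Nsdhl, Dhcr7, Stard4, Acly, Acaca and Fasn, against 26.3% of all entries, and below them for 4, Srebf1, Mvk, Pmvk and Hsd17b7, against 26.7%. For Srebf1 the nearest lines were almost level, at 5.072 in AOC3-LN and 5.073 in AOC11 on the normalized log2 scale. For Idi1 the nearest were the lymph node lines, which differed by 0.06. In limma's fit of the mice, which took the 2 lines of each as if they were replicates, with Benjamini-Hochberg adjustment, 0 of the 32 genes and 0.205% of all entries had an adjusted p under 0.05. An unadjusted p under 0.05 was found for 7 of the genes, Mvk, Pmvk, Hsd17b7, Dhcr7, Stard4, Acly and Fasn, and for 18.7% of all entries. Acly had the lowest adjusted limma p of the 32, 0.15, with a difference of 0.83 (SE 0.20) and the AOC3 lines higher at both sites.

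Genes of neighbouring lipid pathways gave smaller differences in the AOC11 pair. The medians of AOC11-LN minus AOC11 were 0.07 over 8 other genes of sterol and isoprenoid synthesis, 0.38 over 11 of 15 listed genes of sterol uptake, efflux and storage that passed the filter, 0.12 over 19 of 25 other genes of fatty acid synthesis and elongation, 0.07 over 12 of 14 genes of glycerolipids and lipid droplets and -0.13 over 11 of 18 genes of fatty acid oxidation. Past the threshold upward in that pair were 0 genes of these 5 lists, and downward 1, the lipase inhibitor Angptl4, at -1.19. In the AOC3 pair, 4 genes of the lists were past the threshold upward, the cholesterol esterifying Soat1 at 1.05, the elongase Elovl4 at 1.20, the triglyceride forming Dgat2 at 1.09 and the nuclear receptor Ppard at 1.05, and 0 were past it downward.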

How the data were processed

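RNA of 4 cultured lines was sequenced with 1 stranded library per line, as read pairs. The authors trimmed reads with Trim Galore, mapped them to mm10 with TopHat2 and estimated abundance with Cufflinks on GENCODE M21, at default settings, which do not use strand, and the deposited values are FPKM that are neither log-transformed nor quantile-normalized. Tool versions are not given in the sources used here. No counts were analysed, so depth was estimated from the steps between low FPKM values, of which 71.1% to 74.0% lay within 0.1 of a whole multiple, against 20% by chance.

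For the comparisons, log2(FPKM + 1) was quantile-normalized over the table and kept for entries at 1 FPKM or more in at least 1 line. The pseudocount understates differences of low genes. Differences above 1 or below -1 were counted, and limma 3.58.1 in R 4.3.3 (lmFit, eBayes with trend, Benjamini-Hochberg) was fitted over all 14165 entries and tested on simulated data. All listed genes are named, and from each other list at most the 3 genes with the largest difference past the threshold in a comparison. Genes, lists and sequence letters were chosen with earlier results of these data known. One call of the limma mouse fit on the list of sterol uptake, efflux and storage is not described here. Alternatives were another pseudocount, scaling, filter or threshold, protein-coding genes, blocks and each line left out.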

Additional observations from a re-analysis of the deposited data

Results flagged for a closer look

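Both mice gave a lymph node and a primary line, and for 5 genes the lymph node line differed from the primary line by at least 0.5 on the log2 scale in opposite directions in the mice, as did 4.74% of all entries. In each of the 5 the lymph node line was the lower one in the AOC3 pair and the higher one in the AOC11 pair, a pattern of 2.99% of all entries. The values for AOC3-LN minus AOC3 and AOC11-LN minus AOC11 were -0.68 and 1.31 for Insig1, the SREBP retention factor, and -0.62 and 1.10 for Hmgcs1, the HMG-CoA synthase. They were -0.74 and 0.88 for Pmvk, the phosphomevalonate kinase, -0.61 and 0.89 for Fdps, the farnesyl diphosphate synthase, and -0.61 and 0.59 for Fdft1, the squalene synthase. The median over the 32 genes was -0.19 in the AOC3 pair and 0.58 in the AOC11 pair. Exons of Hmgcs1 and of Fdft1 share bases with a gene on the other strand, and reads of those bases cannot be told apart. With 1 library per line the difference between the mice was not tested.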

How the results depend on the processing

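Alternatives to the scaling were a pseudocount of 0.1, no quantile normalization and scaling by the median. Under each of them the counts past the threshold remained 4 between the mice, 0 in the AOC3 pair and 8 in the AOC11 pair. The medians kept their signs. The filter was applied after normalization, and all 32 genes also passed it at 5 FPKM. Dropping it or raising it to 5 FPKM therefore could not change these counts or medians. At a 1.5-fold threshold the counts were 10 between the mice, 6 in the AOC3 pair and 18 in the AOC11 pair, against 26.9%, 13.8% and 24.6% of all entries, which follows from the lower threshold. With 1 line left out, the count between the mice ranged from 2 to 6, and the median from -0.314 to 0.397. That median was below 0 without AOC3 (-0.0064) and without AOC11 (-0.314). Across the scalings the sign differed for Scd2 between the mice, Fads2 in the AOC3 pair, Cyp51 between the primary lines and Elovl6 between the lymph node lines, and for 0 genes in the AOC11 pair. Scaling moved Acly and Hsd17b7 across the threshold between the lymph node lines.

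limma called 0 of the 32 genes under each alternative, while its calls over all entries ranged from 0 to 256 between the mice, the highest with protein-coding genes alone, and from 0 to 3 between the sites. A replicate block for site in the fit of the mice, or none for mouse in the fit of the sites, left 0 of the 32 genes called. The site fit with a line left out was not run, since it leaves no residual degrees of freedom. Each value rests on 1 library, and Tm7sf2 in AOC11 on the fewest estimated fragments.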
